A study of Mus musculus with 12 samples.

Results

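Short interspersed elements (SINEs) of the B4 family are repeats scattered through the genomes of mice and other rodents. The 931 peaks described here are the accessible sites of mouse hepatocyte nuclei whose repeat annotation gives SINE as class and B4 as family, out of 52530 peaks in all. By repeat name they were 353 RSINE1, 198 B4A, 124 B4 and 256 ID_B1 peaks, the last being a further name that the annotation places in the same family. No accessibility value entered this choice. The assay was ATAC-seq: a transposase inserts adapters where nucleosomes leave DNA open, and the adapters are then read out by sequencing. The nuclei came from livers of female HEP-INTACT mice, a line in which tagged hepatocyte nuclei are pulled down on beads. The sources used here do not give the promoter that drives the tag, the strain background or the age. There were 6 mice, 3 fed ad libitum and 3 fasted for 16 h from ZT12, the onset of the active phase, and all were collected at the same time of day. From each mouse 1 library was made from fresh liver and 1 from frozen liver, which gives 4 groups of 3 libraries (fresh fed, fresh fasted, frozen fed and frozen fasted), all of HEP-INTACT nuclei.

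SINEs are retrotransposons that carry no protein genes of their own and are copied through the enzymes of other elements. Many descend from small RNA genes read by RNA polymerase III, with an internal promoter made of an A box and a B box. B4 elements join a part like the tRNA-derived ID element to a part like the 7SL-derived B1 element, RSINE1 is a related rodent repeat, and ID_B1 is named for the same pair of parts. In fasting, the liver turns from storing and making fat to releasing glucose, oxidizing fatty acids and making ketone bodies, and many distal regulatory sites in hepatocytes change their accessibility.

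The sequences below show what accessible copies of these repeats look like. They are the parts of 4 member peaks that lie inside RefSeq promoter windows of the build GRCm38.p6, the assembly behind mm10. Overlaps were not listed for every chromosome, so other members may also have one. The Anp32a stretch is chr9:62380515-62380639 on the plus strand, in an intergenic B4 peak. The Ski stretch is chr4:155228594-155228746 on the minus strand, in an intergenic RSINE1 peak. The Atoh8 stretch is chr6:72231617-72231671 on the plus strand, in an RSINE1 peak in intron 1 of Atoh8. The Prkd3 stretch is chr17:78983836-78983982 on the plus strand, in an RSINE1 peak in intron 2 of Prkd3. In the same order, the promoter windows are those of the genes Gm40522, Gm42364, Gm52906 and Gm41622. The peaks are called here by the nearest gene start in the peak annotation, which is that of another gene. Capitals mark matches to the motifs searched.
B4 peak nearest Anp32a: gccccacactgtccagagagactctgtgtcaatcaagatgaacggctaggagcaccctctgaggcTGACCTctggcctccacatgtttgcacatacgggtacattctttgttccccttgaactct
RSINE1 peak nearest Ski: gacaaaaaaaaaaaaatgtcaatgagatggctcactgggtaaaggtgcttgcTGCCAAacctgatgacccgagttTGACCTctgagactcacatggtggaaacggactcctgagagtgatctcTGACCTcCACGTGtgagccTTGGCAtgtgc
RSINE1 peak nearest Atoh8: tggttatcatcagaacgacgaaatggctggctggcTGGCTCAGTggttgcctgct
RSINE1 peak nearest Prkd3: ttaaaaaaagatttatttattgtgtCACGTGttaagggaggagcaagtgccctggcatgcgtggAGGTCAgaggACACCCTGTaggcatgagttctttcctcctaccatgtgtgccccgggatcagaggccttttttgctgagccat

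Of 12 motifs searched on both strands, 5 had a match. The nuclear receptor half-site AGGTCA, also read as TGACCT on the other strand, was in 3 of the 4 stretches and occurred 2 times in the Ski stretch. Among the first 150 bases of 32851 RefSeq promoter windows, 8.47% held it. The E-box CACGTG was in the Ski and Prkd3 stretches (2.89% of promoter windows). The nuclear factor I half-site TTGGCA was in the Ski stretch on both strands (7.88%), and the shortened glucocorticoid receptor element ACANNNTGT was in the Prkd3 stretch (3.75%). A shortened A box, TGGCNNAGT, was in the Atoh8 stretch (2.12%). The motifs with no match in these stretches were the shortened B box GTTCGANNC (0.475% of promoter windows), the forkhead core TGTTTAC (2.01%), the HNF4 element CAAAGTCCA (0.207%), the shortened DR1 element GTCANAGGT (0.545%), the C/EBP core TTGCNNAA (6.22%), the AP-1 element TGANTCA (4%) and the STAT element TTCNNNGAA (4.4%). No 2 matches overlapped each other. Read on either strand, the longest word shared by the Ski and Prkd3 stretches had 14 bases, CTCTGACCTCCACG, and the 3 stretches over 100 bases shared CTGACCTC, which contains the half-site. These are matches of letters, not measured binding, and 4 stretches say nothing of the other member peaks.

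Accessibility values were reads per peak, normalized by the authors with 1 factor per library. The libraries held from 3692150 to 14506100 reads in peaks, and the median member peak held between 37 and 173 reads. Member peaks took 1.16 to 1.30% of the reads in every library. The hepatocyte label was checked at gene starts: 9 of 10 hepatocyte markers had a peak within 1 kb, with a median of 267.5 normalized reads. None of 6 endothelial, 6 lymphocyte and 6 macrophage markers had one, while 1 of 5 bile duct and 1 of 6 stellate cell markers did. Some endothelial, lymphocyte and macrophage genes had peaks farther from the start, among them Stab2 (6), Cdh5 (5), Cd4 (5) and Adgre1 (1). A lower value in these pooled nuclei can come from fewer nuclei with the site open or from less opening in each, which cannot be told apart.

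Member peaks were distal and of modest height. All lay in introns (594 peaks, 63.8%, of which 236 in a first intron) or between genes (337 peaks, 36.2%), and 19 were within 1 kb of a gene start. Their median distance to the nearest gene start was 15.95 kb, beside 17.64 kb for the 33996 peaks of the table beyond 1 kb. RSINE1 peaks were 66.3% intronic and B4 peaks 57.3%. For 593 intronic members the host transcript was in the RefSeq gene table, and 140 of them lay in an intron of another gene than the one with the nearest start. The peaks are called by the gene with the nearest start in the peak annotation, which need not be the gene a site acts on.

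The median member peak had a mean of 86.9 normalized reads over the 12 libraries, below the 97.8 of peaks beyond 1 kb and the 114 of all peaks. The subfamilies were close to each other: 88.7 for RSINE1, 83.1 for B4A, 84.6 for B4 and 89.9 for ID_B1. Other SINEs gave 77.7 for B1, 75.1 for B2 and 101 for MIR. The highest member was the B4A peak nearest Gm19345, with a mean of 436 reads, followed by the B4A peak nearest Errfi1, a feedback inhibitor of EGF receptor signalling, with 396. None of the 2 highest peaks of each subfamily was called for fasting, except that the B4 peak nearest Eny2 passed after quantile normalization alone (-0.21). The Errfi1 peak had 410, 404 and 375 reads in the fed mice and 407, 349 and 433 in the fasted mice, so the ranges overlapped.

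With fasting, 160 member peaks were higher and 238 lower (limma on log2 values, 3 fasted against 3 fed mice, each the mean of a fresh and a frozen library, adjusted p under 0.05 over all 52530 peaks). Those are 17.2% and 25.6% of the members. Over all peaks 16.5% were higher and 18.1% lower, and over peaks beyond 1 kb of a gene start 14.8% and 25.4%. The family therefore had about the shares of distal peaks in general. The median log2 difference was -0.01 over the members, -0.05 over distal peaks and 0.05 over all peaks. Differences beyond 2-fold were called for 29 higher and 83 lower members (3.11% and 8.92%), beside 1.53% and 5.62% of all peaks and 2.06% and 8.33% of distal peaks. The members ranged from -3.31 to 2.17. Log2 differences are of value + 1 and so understate changes at low peaks. Scaling the libraries to peaks near gene starts moved the median of all peaks from 0.05 to -0.08 and the member counts to 101 higher and 293 lower. Those are 10.85% and 31.47% of the members, beside 7.738% and 24.45% of all peaks.

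By repeat name, lower peaks outnumbered higher ones in all names but RSINE1 in the mean of both preparations. RSINE1 peaks were even there, with 71 higher (20.1%) and 69 lower (19.5%) and a median of 0.03. Within each preparation RSINE1 also had more lower than higher peaks. Fresh liver gave 55 higher and 66 lower (15.58% and 18.7%, median 0.04). Frozen liver gave 47 and 58 (13.31% and 16.43%, median 0.03). B4A peaks had 32 higher (16.2%) and 62 lower (31.3%), and their median was -0.12. Of the B4 peaks, 17 rose (13.7%) and 40 fell (32.3%), around a median of -0.13. ID_B1 peaks had 40 higher (15.6%) and 67 lower (26.2%), with a median of 0.00. Among other SINEs, B1 peaks had 90 higher and 115 lower of 526 (17.1% and 21.9%). B2 peaks had 44 and 75 of 328 (13.4% and 22.9%). MIR peaks, an older SINE family, had 36 higher and 94 lower of 353 (10.2% and 26.6%), as many peaks as RSINE1. Scaling the libraries to peaks near gene starts gave medians of -0.09, -0.24, -0.25 and -0.13 in the order RSINE1, B4A, B4 and ID_B1, and quantile normalization gave 0.04, -0.03, -0.08 and 0.03. Without the lowest 25% of peaks the B4A and B4 medians were -0.04 and -0.05. Without fasted mouse C the B4A median was -0.06, and without fed mouse C the B4 median was -0.19. The differences between repeat names were not tested, because peaks are not replicates.

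**Figure D1:**
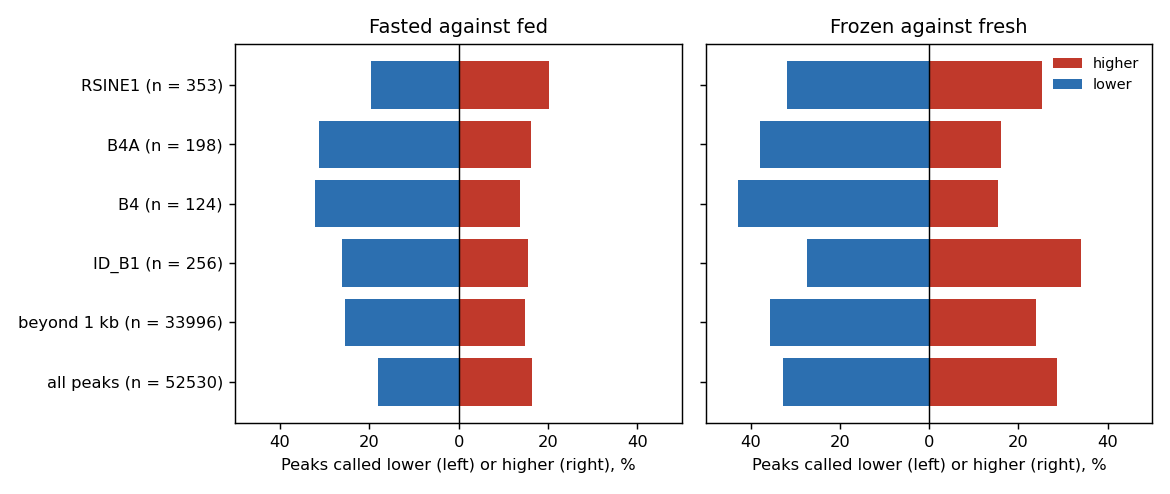
Share of peaks called lower (bars to the left) and higher (bars to the right), in percent, for each repeat name, for peaks beyond 1 kb of a gene start and for all peaks, in fasted against fed mice and in frozen against fresh liver. In fasting, 32.3% of B4 and 31.3% of B4A peaks were lower against 19.5% of RSINE1 peaks, and in freezing ID_B1 had the highest share of higher peaks, 34.0%.

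Peak height moved with that split. Among members above the median height of all peaks, RSINE1 had 24 higher and 14 lower of 120, B4A 10 and 12 of 55, B4 6 and 8 of 39 and ID_B1 12 and 17 of 88. At or below that height the counts were 47 and 55 of 233 for RSINE1, 22 and 50 of 143 for B4A, 11 and 32 of 85 for B4 and 28 and 50 of 168 for ID_B1. Distal peaks in general showed 17.0% higher and 18.6% lower above that height and 13.3% and 30.0% below it. The part of height in the split between repeat names was not tested. By place, 98 of 594 intronic members were higher and 148 lower, beside 62 and 90 of 337 intergenic ones. The shares were 16.5% and 24.9% in introns and 18.4% and 26.7% between genes, and those of distal peaks in general 13.5% and 26.6% in introns and 16.8% and 23.4% between genes.

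Among members above the median height whose mice did not overlap, the peaks with the largest rise in fasting lay nearest Ankrd46, Pptc7 and Setmar. The ID_B1 peak nearest Ankrd46, intergenic at chr15:36431998-36432198, had 38.6, 30.8 and 62.5 normalized reads in the fed mice and 178, 211 and 195 in the fasted mice. Every fasted mouse was above every fed mouse, and the log2 difference was 2.17 ± 0.22 (SE, adjusted p = 0.000229). In intron 1 of Pptc7, which encodes a mitochondrial phosphatase, the B4A peak at chr5:122305594-122305794 had 64.2, 44.9 and 60.8 reads in the fed mice and 196, 166 and 169 in the fasted mice. The difference was 1.65 ± 0.15 (adjusted p = 0.000164). An intergenic B4A peak nearest Setmar (chr6:108092741-108092941) had 67.6, 51.2 and 62.0 reads in the fed and 222, 136 and 206 in the fasted mice, a difference of 1.64 ± 0.19 (adjusted p = 0.00035).

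Further rises by the same rule were smaller and spread over all 4 repeat names. In intron 1 of Scp2, the gene of a sterol carrier and peroxisomal thiolase, an ID_B1 peak (chr4:108116535-108116735) had 112, 98.2 and 109 reads in the fed mice. Its fasted mice had 188, 178 and 192, a tight separation for a difference of 0.79 ± 0.09 (adjusted p = 0.000313). The B4 peak 1.32 kb from the start of Tram2, which acts in protein entry into the endoplasmic reticulum, had 157, 154 and 149 reads in the fed and 271, 247 and 260 in the fasted mice. That difference was 0.76 ± 0.07 (chr1:21080441-21080641, intergenic, adjusted p = 0.000165). The RSINE1 peak in intron 5 of Os9, a lectin of endoplasmic reticulum quality control, had a difference of 1.18 ± 0.28, with 1 fed mouse at 42.3 reads and the other two at 84.6 and 98.0. The remaining named peaks were in intron 8 of the laminin gene Lamb3 (1.25), nearest Clcc1 in intron 13 of Wdr47 (0.82), nearest Sftpb (0.78) and nearest the actin-capping gene Capg in intron 11 of Elmod3 (0.73).

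The deepest fall by the same rule was at an intergenic B4 peak nearest Mup19, a major urinary protein gene (chr4:61808048-61808248). Its values were 309, 360 and 161 reads in the fed and 70.9, 101 and 37.0 in the fasted mice. The groups did not overlap but the mice within each spread widely, and the difference was -2.01 ± 0.36 (adjusted p = 0.00273). In intron 4 of Acot7, an acyl-CoA thioesterase gene, an RSINE1 peak (chr4:152227845-152228045) had 168, 167 and 162 reads in the fed and 57.4, 81.8 and 58.5 in the fasted mice. That is a log2 difference of -1.43 ± 0.15 (adjusted p = 0.00029).

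Adh5 encodes the enzyme that clears formaldehyde bound to glutathione. The RSINE1 peak in its last intron (chr3:138454802-138455002) had 178, 169 and 152 reads in the fed and 73.3, 72.5 and 58.9 in the fasted mice, a difference of -1.27 ± 0.12 (adjusted p = 0.000187). The ID_B1 peak in intron 3 of Dcun1d1, which promotes cullin neddylation, differed by -1.23 ± 0.14, and the ID_B1 peak in intron 5 of the nuclease gene Dnase1l3 by -1.21 ± 0.29. In the latter, 1 fasted mouse had 136 reads against 72.6 and 50.6 in the others. Smaller falls were in intron 14 of the mitochondrial sodium-calcium exchanger gene Slc8b1 (B4A, -1.19), intron 2 of Sh3pxd2a (ID_B1, -1.10) and intron 2 of the nuclear receptor coactivator gene Ncoa1 (ID_B1, -0.93). The list ended with a peak nearest Mrps10 in intron 5 of Trerf1 (B4A, -0.87) and one nearest the ribosomal protein gene Rpl11 (RSINE1, -0.84).

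**Figure D2:**
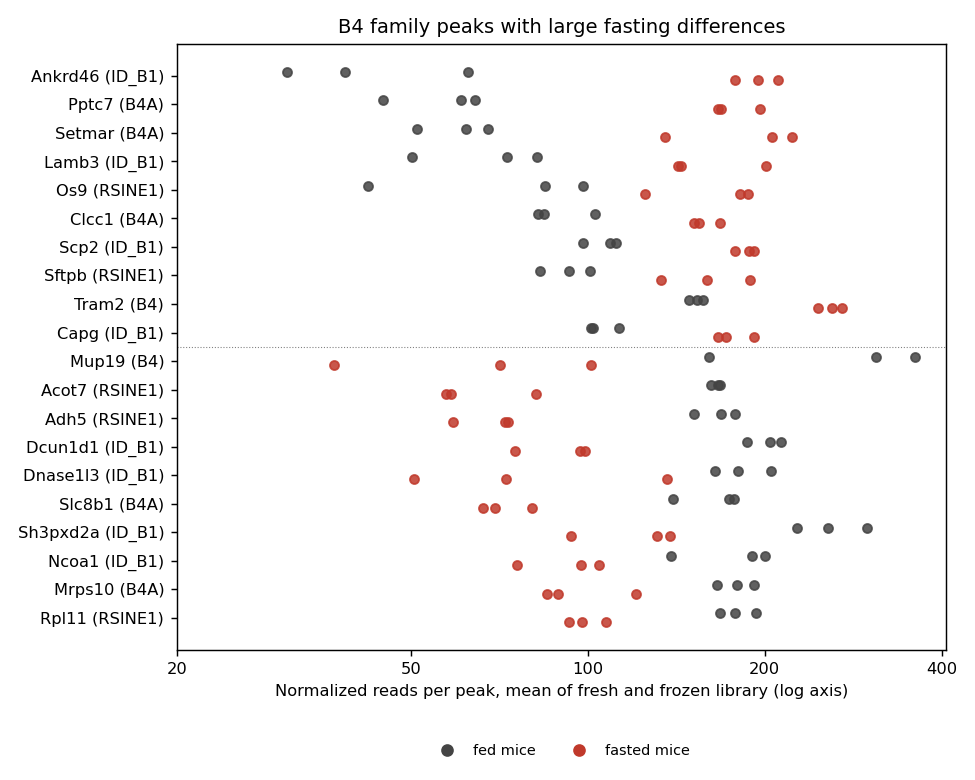
Normalized reads per peak (log axis) in each of 3 fed and 3 fasted mice, each point the mean of a mouse's fresh and frozen library, for the 10 member peaks named as higher and the 10 named as lower in fasting. In the rows above the dotted line every fasted mouse lies to the right of every fed mouse, and in the rows below it every fasted mouse lies to the left. The naming rule requires this separation.

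Low peaks outside that rule, chosen after their values were seen, changed more. The B4A peak nearest Csmd1 had 70.6, 79.9 and 104 reads in the fed and 10.5, 19.0 and 3.96 in the fasted mice, a log2 difference of -3.31 ± 0.55. The RSINE1 peak nearest Platr26 had 46.6, 45.1 and 46.0 reads in the fed and 8.61, 9.98 and 0.565 in the fasted mice (-3.11 ± 0.65). In both, single frozen libraries were at 0, so the size of the change is uncertain, but the fed and fasted mice did not overlap. In the other direction, the RSINE1 peak 1.93 kb from the start of Zdhhc5, a protein palmitoyltransferase gene, had 24.0, 15.7 and 17.0 reads in the fed and 114, 91.4 and 58.4 in the fasted mice (2.14 ± 0.27).

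The 9 lists of genes of hepatic metabolism and hepatocyte function held 25 member peaks. All peaks nearest the listed genes numbered from 113 to 401 per list, and members were 931 of the 52530 peaks in all. Whether members are scarce at these genes was not tested. Each list's members are given beside all peaks nearest the same genes, and with so few members a count says little of its list. On the list of fatty acid oxidation and ketone production, 2 of 3 members were higher and none lower, beside 73 higher and 17 lower of all 171 peaks of these genes. Cpt1a encodes the gate of fatty acids into mitochondria, and the ID_B1 peak 3.69 kb from its start (chr19:3319511-3319711, intergenic) had 49.6, 50.7 and 49.7 reads in the fed and 108, 114 and 106 in the fasted mice. The difference was 1.11 ± 0.12 (adjusted p = 0.000281), with almost no spread within either group. Near Angptl4, an inhibitor of lipoprotein lipase, the RSINE1 peak at chr17:33773539-33773739 had 50.0, 30.7 and 45.1 reads in the fed and 77.1, 59.3 and 86.7 in the fasted mice (0.82 ± 0.22, adjusted p = 0.0189). The call was lost without fasted mouse A (0.78, adjusted p = 0.0647) or fed mouse B (0.59, adjusted p = 0.0562). The B4 peak nearest the thiolase gene Acaa2 had a difference of -0.13 ± 0.22 and was not called.

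On the list of fat and cholesterol synthesis, 1 of 7 members was higher and 3 were lower, where 46 of all 250 peaks of these genes were higher and 101 lower. Thrsp encodes a protein that promotes fat synthesis, and the RSINE1 peak in its single intron (chr7:97415199-97415399) had 65.5, 62.0 and 51.9 reads in the fed and 15.2, 19.1 and 17.4 in the fasted mice. That is -1.77 ± 0.21 (adjusted p = 0.00046). In intron 1 of malic enzyme Me1, which makes NADPH for fat synthesis, the B4A peak (chr9:86680097-86680297) had 90.9, 88.7 and 83.7 reads in the fed and 45.0, 60.5 and 38.8 in the fasted mice (-0.91 ± 0.19, adjusted p = 0.00573). The peak that rose was the B4A peak nearest the fatty acid desaturase gene Fads1 (0.45, adjusted p = 0.0154), a call lost without fasted mouse A (0.38, adjusted p = 0.0749) or fed mouse B (0.42, adjusted p = 0.0508), while 2 RSINE1 peaks in intron 1 of Mlxipl, the gene of a carbohydrate-responsive factor, had -0.15 and 0.07 and were not called.

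The other lists held single or scattered members. For gluconeogenesis and hormone response 1 of 4 members was called: the B4 peak in intron 1 of Fbp1, which encodes a gluconeogenic enzyme, was lower in fasting, with 102, 112 and 101 reads in the fed and 65.4, 85.3 and 86.4 in the fasted mice (-0.40 ± 0.13, adjusted p = 0.0376). Of all 363 peaks of the listed genes, 102 were higher and 52 lower. That call was lost without fasted mouse A (-0.28, adjusted p = 0.129) and without each of the 3 fed mice in turn (adjusted p from 0.0709 to 0.115). The members nearest Lpin1 (-0.43), Irs1 (-0.22) and Insr (0.07) were not called. On the list of hepatocyte transcription factors 3 of 5 were higher and 1 lower, while all 401 peaks of these genes had 71 higher and 71 lower. A pair of neighbouring intergenic peaks nearest Nr2f2, an orphan nuclear receptor gene, rose: the B4A peak had 182, 155 and 183 reads in the fed and 232, 223 and 235 in the fasted mice (0.41 ± 0.08), and the ID_B1 peak differed by 0.68. The ID_B1 peak in intron 1 of Nr1i2, the xenobiotic receptor PXR, also rose (0.43), and that in intron 1 of Nr5a2, an orphan receptor of bile acid synthesis, fell from 105, 142 and 147 to 62.7, 88.8 and 69.0 reads (-0.84 ± 0.17, adjusted p = 0.00546). The Nr1i2 call was lost without fasted mouse A and without each fed mouse in turn (adjusted p from 0.0526 to 0.0627) and after scaling to peaks near gene starts (0.31, adjusted p = 0.0828), and the call of the ID_B1 peak at Nr2f2 without fed mouse B (0.60, adjusted p = 0.0637). The member nearest Lifr, a receptor gene that this list also holds, was not called (0.41), but was without fasted mouse B (0.57, adjusted p = 0.0297).

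The list of secreted hepatocyte proteins also holds the enzyme genes Cps1, Ass1 and Arg1. On it 3 of 5 members were higher and none lower, but of all 204 peaks of the listed genes 40 were higher and 27 lower. The members that rose were the intergenic B4 peak 35.4 kb from albumin, Alb (44.1, 20.7 and 49.3 reads in the fed and 85.1, 67.0 and 96.0 in the fasted mice, 1.25 ± 0.33, adjusted p = 0.017), and both members at complement gene C3, an ID_B1 peak (0.56) and a B4A peak in its first intron (0.45). The Alb call was lost without fasted mouse A (1.22, adjusted p = 0.0533), and without fed mouse B the difference fell to 0.80 (adjusted p = 0.0204). That of the B4A peak at C3 was lost without fasted mouse B, fed mouse A or fed mouse B (adjusted p from 0.0557 to 0.0709) and after scaling to peaks near gene starts (0.33, adjusted p = 0.0684). The members nearest Apoh (0.29, adjusted p = 0.0638) and Ttr (0.18) were not called. For the circadian clock, the only member, in intron 1 of Rora, differed by 0.05 and was not called. The lists of glycolysis and glycogen, of growth hormone and STAT5, and of bile acid and xenobiotic metabolism had no member peak.

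Most of the 846 nearest genes had 1 member (775 genes), and 9 had 3 or more. Atxn2 had 6 members among 20 peaks, of which 3 were higher and 1 lower in fasting. An ID_B1 peak there rose by 0.93 and a nearby B4 peak, at chr5:121696017-121696217, fell by 0.93 on the log2 scale, from 60.4 ± 2.20 to 31.9 ± 4.12 reads (mean ± SD, n = 3). The 2 smaller rises there, of 0.31 and 0.36 in RSINE1 peaks, were not called after scaling to peaks near gene starts (0.19 and 0.23), and the second was not called without fasted mouse B (0.34) or fed mouse A (0.31). At Ttc39b, whose product is linked to cholesterol transport, all 3 members were lower, by 0.79, 0.47 and 0.45 on the log2 scale. The call at -0.47, in a B4 peak of intron 1, was lost without fasted mouse A or any 1 fed mouse (adjusted p from 0.0576 to 0.0822), and that at -0.45, in an RSINE1 peak of intron 3, without fasted mouse A or B or any 1 fed mouse (adjusted p from 0.0675 to 0.139). Nearest Sc5d, a gene of cholesterol synthesis, 2 of 3 members were lower: an RSINE1 peak fell from 63.8 ± 12.4 to 12.6 ± 7.58 reads and a B4 peak from 128 ± 3.74 to 93.9 ± 8.76 (mean ± SD, n = 3). The ID_B1 member at Sc5d, with a mean of 267 reads, was not called (-0.11), but was after scaling to peaks near gene starts (-0.24). All 4 members nearest the zinc transporter gene Slc39a14 were uncalled in fasting, between -0.18 and 0.18.

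Member peaks moved much as their neighbours did. For the 283 members with another peak within 1 kb, the fasting log2 differences of member and neighbour correlated with r = 0.691 and 78.1% had the same sign. For all 12141 distal peaks with such a neighbour the values were 0.685 and 74.3%. Neighbouring peaks share libraries and may share reads, so these values are descriptive.

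The 2 preparations come from the same mice. Within fresh liver 119 members were higher and 217 lower in fasting, where 11.4% of all peaks were higher and 16.1% lower. Within frozen liver 126 were higher and 190 lower, where 12.8% of all peaks were higher and 15% lower. In both preparations 84 members were higher and 160 lower, and no member was called in opposite directions. Fresh liver alone called 92 members and frozen liver alone 72. As shares of the members these were 9.02% higher in both, 17.2% lower in both, 9.88% in fresh liver alone and 7.73% in frozen liver alone. Distal peaks in general had 7.56%, 17.5%, 8.45% and 8.81% in the same order, and all peaks 7.06%, 12.1%, 8.38% and 8.57%. Without fresh fasted library A, fresh fed library A or fresh fed library B, the higher count in fresh liver fell to 74, 78 and 76. Those are 7.948%, 8.378% and 8.163% of the members, beside 6.025%, 7.419% and 6.967% of all peaks. Without frozen fed library A the lower count in frozen liver was 126 (13.53%, beside 10.39% of all peaks). Without frozen fed library B the counts were 79 higher and 111 lower (8.485% and 11.92%, beside 7.36% and 9.223%). The authors' deposited table called 97 members higher and 183 lower in fresh liver, and 140 and 211 in frozen liver, at an adjusted p under 0.05. Over all peaks the authors' deposited table called 8.93% higher and 14.1% lower in fresh liver and 13.5% and 16% in frozen liver.

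The fasting difference was not called as different between the preparations at any peak (0 of 931 members and 0% of all peaks, limma interaction term), with 41 members and 2702 peaks of the table at an unadjusted p under 0.05. With each mouse as a replicate block the interaction was called at 4 members and at 395 of all peaks. The Ofcc1 and 4833420G17Rik peaks, both RSINE1, had the lowest p-values without the block (adjusted p = 0.281 and 0.716).

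**Figure D3:**
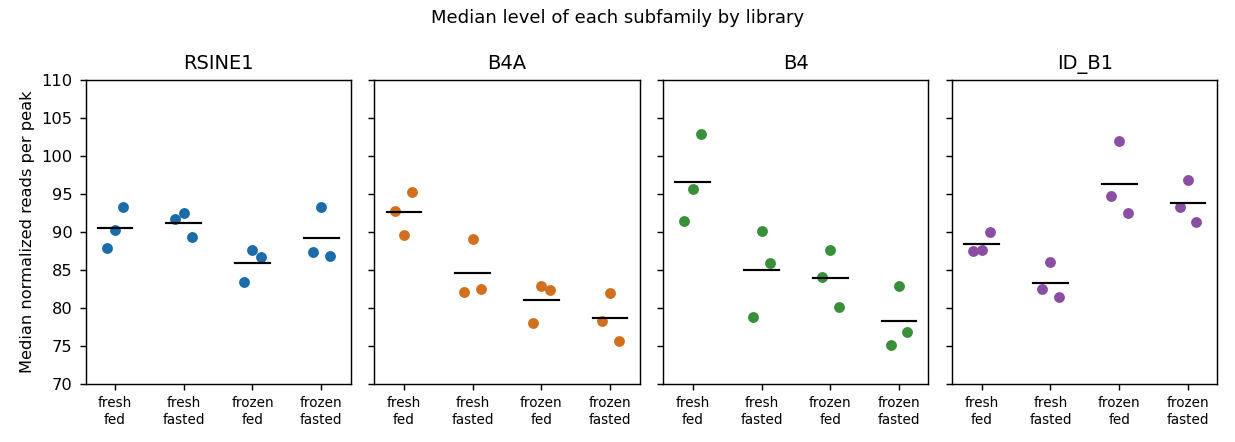
Median normalized reads per peak of each repeat name in each of the 12 libraries, with a bar at the mean of the 3 libraries of a group; the axis starts at 70. RSINE1 lies between 83.4 and 93.3 in all libraries, B4A and B4 are highest in fresh fed liver, and ID_B1 is higher in frozen than in fresh liver.

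By library, the median RSINE1 peak had 90.5 ± 2.73 reads in fresh fed livers and 91.1 ± 1.65 after fasting, and 85.9 ± 2.23 and 89.1 ± 3.59 in the frozen libraries (mean ± SD over 3 libraries). The median B4A peak had 92.5 ± 2.83 and 84.6 ± 3.92 reads in fresh liver, fed then fasted, and 81.1 ± 2.65 and 78.6 ± 3.16 in frozen liver. B4 gave 96.6 ± 5.78, 84.9 ± 5.77, 83.9 ± 3.72 and 78.2 ± 4.07 in the same order. ID_B1 was the only name above its fresh level in frozen liver, with 88.4 ± 1.45, 83.3 ± 2.41, 96.4 ± 4.96 and 93.8 ± 2.79. These medians over members were not tested.

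More member peaks passed the test for freezing than that for fasting, and fewer of them differed beyond 2-fold. Both used the same 12 libraries, but the freezing test took each library as a unit and the fasting test the mean of each mouse. With each library as a unit, fasting called 224 members higher and 292 lower (24.06% and 31.36%). Over all peaks that fit called 25.17% higher and 22.98% lower. Over 6 frozen against 6 fresh libraries, with feeding state as a covariate, 227 members were higher (24.4%) and 310 lower (33.3%). Over all peaks 28.7% were higher and 32.8% lower, and over peaks beyond 1 kb 23.9% and 35.5%, so the family again had about the shares of distal peaks. Beyond 2-fold, 22 were higher and 47 lower (2.36% and 5.05%), where all peaks had 1.91% and 3.34% and distal peaks 2.01% and 4.22%. The members ranged from -1.79 to 1.55. The median was -0.09, beside -0.11 for distal peaks and -0.05 for all peaks. The split depended on scaling and filter. After quantile normalization it was 251 higher and 231 lower (26.96% and 24.81%, beside 28.36% and 29.45% of all peaks). Scaling to peaks near gene starts gave 182 and 369 (19.55% and 39.63%, beside 24.06% and 38.43%). Without the lowest 25% of peaks it was 204 and 152 of 591 members (34.52% and 25.72%, beside 36.01% and 27.2%).

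Among the repeat names, RSINE1 had 89 higher and 112 lower (25.2% and 31.7%, median -0.07). B4A had 32 and 75 (16.2% and 37.9%, median -0.20), and B4 had 19 and 53 (15.3% and 42.7%, median -0.24). ID_B1 had more higher than lower, 87 and 70 (34.0% and 27.3%, median 0.01). After quantile normalization the medians were 0.04, -0.05, -0.09 and 0.13, so the sign of RSINE1 turned while the order of the 4 names was the same. After scaling to peaks near gene starts they were -0.14, -0.27, -0.31 and -0.06, and the sign of ID_B1 turned. That scaling has 1 factor per library and shifts all names about alike, so it could not change their order. Without the lowest 25% of peaks the medians were 0.06, -0.04, -0.07 and 0.19.

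Place and height moved with the freezing difference. Of 594 intronic members 120 were higher and 230 lower (median -0.16), while of 337 intergenic members 107 were higher and 80 lower (median 0.00). Distal peaks in general showed the same direction, with 20.1% higher and 40.7% lower in introns and 29.0% and 29.4% between genes. For B4 the intronic counts were 11 higher and 38 lower of 71, and for ID_B1 47 and 48 of 161. Between genes, RSINE1 had 42 higher and 22 lower of 119, and ID_B1 40 and 22 of 95. Above the median height of all peaks 128 of 302 members were higher and 66 lower, and at or below it 99 of 629 were higher and 244 lower. Those are 42.4% and 21.9% above and 15.7% and 38.8% below, near the 38.7% and 24.9% above and 13.7% and 42.8% below of distal peaks in general. What part place, height or library depth had in these counts was not tested.

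**Figure D4:**
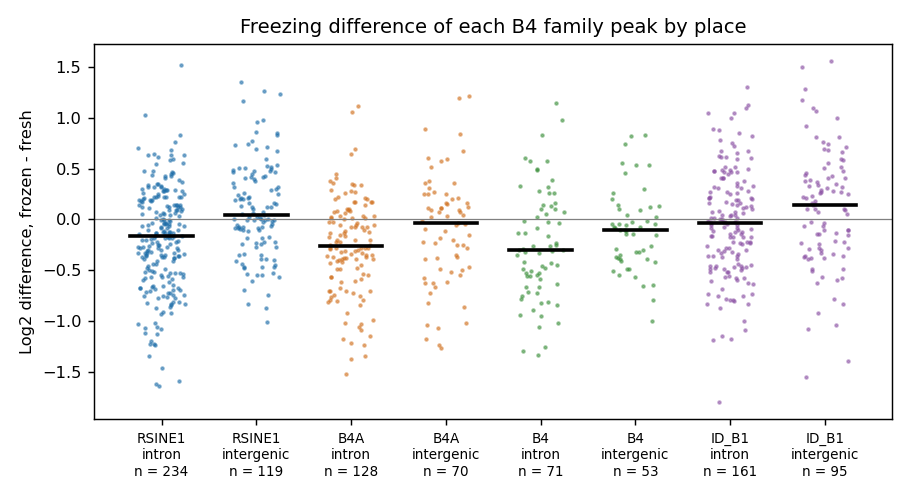
Log2 difference of frozen minus fresh liver for each member peak, split by repeat name and by place, with a bar at the median; points are spread sideways at random. Intronic medians lie below the intergenic median for each repeat name, at -0.17 against 0.05 for RSINE1 and at -0.30 against -0.10 for B4.

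By the same naming rule, the largest rise with freezing was at the RSINE1 peak in intron 28 of Smarca2, the gene of a SWI/SNF chromatin remodelling ATPase (chr19:26765557-26765757). Its 6 fresh libraries lay between 97.6 and 124 reads, with a median of 109, and its 6 frozen libraries between 288 and 349, with a median of 314. The ranges were far apart, and the log2 difference was 1.52 ± 0.07 (adjusted p = 1.27e-10). It did not pass the test for fasting (0.09). The intergenic RSINE1 peak nearest Mrpl15, a mitochondrial ribosomal protein gene, ranged from 54.4 to 128 in fresh and from 217 to 274 in frozen libraries (medians 105 and 247, 1.34 ± 0.12). That nearest the scaffold gene Magi3 ranged from 100 to 116 and from 212 to 273 (medians 110 and 266, 1.23 ± 0.07). Next came B4A peaks nearest Pter (1.21) and in intron 2 of Jpx, an X-linked non-coding RNA gene (1.11), and ID_B1 peaks nearest Larp1 (1.09), a regulator of ribosomal protein mRNAs, and Plekha5 (1.06). The list of rises closed with peaks nearest D630033O11Rik (RSINE1, 1.02), Tbl1xr1, a corepressor subunit gene (ID_B1, 0.99), and in intron 1 of the complement protease gene Masp1 (B4, 0.98).

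The largest fall was at the RSINE1 peak in intron 2 of Rap1gds1, which encodes an exchange factor of small GTPases (chr3:139037110-139037310). Fresh libraries lay between 183 and 221 reads, with a median of 198, and frozen libraries between 57.9 and 101, with a median of 81.7. The difference was -1.34 ± 0.12 (adjusted p = 4.89e-08). The B4A peak in intron 1 of L3mbtl3, a reader of methylated lysine, ranged from 111 to 186 in fresh and from 37.8 to 107 in frozen libraries (medians 154 and 80.5, -0.99 ± 0.14), so the groups nearly touched. Of the 10 peaks named as lower, 5 were B4 peaks: nearest Traf5 in intron 9 of Rcor3 (-0.94), in intron 3 of Atxn1 (-0.94), nearest Gm10532 in intron 6 of Ctif (-0.78), in intron 3 of the DNA repair gene Rad50 (-0.75) and in intron 5 of Sash1 (-0.72). The others were the ID_B1 peak nearest Ikzf4 (-0.83), the RSINE1 peak in intron 1 of Wasl, an activator of actin branching (-0.77), and the B4A peak in intron 11 of Erc1 (-0.75). All but the Ikzf4 peak among the 10 were intronic.

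**Figure D5:**
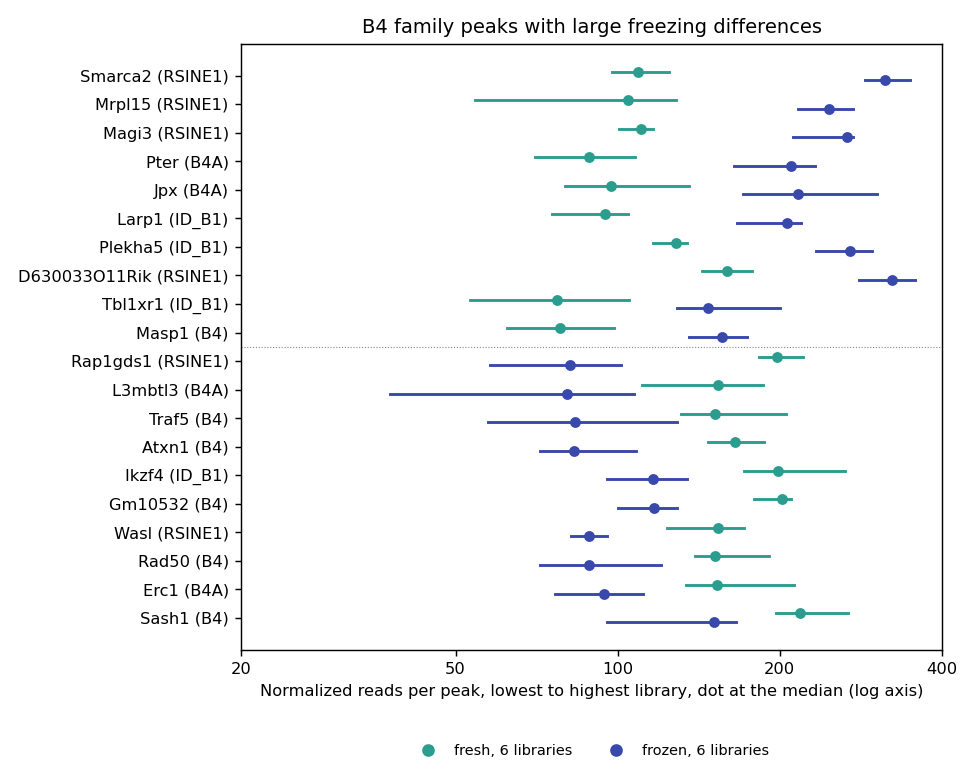
Normalized reads per peak (log axis) in 6 fresh and 6 frozen libraries for the 10 member peaks named as higher and the 10 named as lower in frozen liver, each line running from the lowest to the highest library with a dot at the median. No pair of lines overlaps, as the naming rule requires, and the widest gap is at the Smarca2 peak, with medians of 109 and 314.

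Some peaks changed with both feeding and freezing. The Acot7 peak was lower in fasting and also lower in frozen liver (-0.83), as were the Dcun1d1 peak (-0.83), the Thrsp peak (-0.93) and the Me1 peak (-1.08). The Cpt1a peak was higher in both (0.71 with freezing). The Sh3pxd2a peak was lower in fasting and higher in frozen liver (0.47), and the peak nearest Setmar was higher in fasting and lower in frozen liver (-0.55). The 2 comparisons use the same libraries. Of the 4 peaks whose sequence is printed above, the Anp32a peak, with an AGGTCA half-site, was higher in fasting, with 77.0, 89.7 and 75.2 reads in the fed and 113, 132 and 108 in the fasted mice (0.55 ± 0.12, adjusted p = 0.00719). The Ski and Prkd3 peaks, which share the half-site and the E-box, were not called for fasting (0.23 and 0.01) or freezing (-0.08 and -0.01). The Atoh8 peak, with the A box match, was not called for fasting (-0.10) and was higher in frozen liver (0.43 ± 0.08, adjusted p = 0.000303).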

How the data were processed

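Per the labels' protocols, each reaction held about 25000 nuclei on beads, ran for 30 min at 37 °C, and was followed by 12 cycles of PCR. Tools in the submitters' processing notes are DESeq2, HOMER, SAMtools and BWA 0.7.5a-r405, with mm10 as build and no roles stated. How reads with several matches were treated, which matters at repeats, is not given in the sources used here. The authors deposited signal values, normalized reads per 200 bp peak with 1 factor per library, beside their own log2 fold changes and adjusted p-values. Depths take the smallest common step of a column as 1 read; count models were not used.

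Values were fitted as log2(value + 1) over the 52530 peaks with no filter, using limma 3.58.1 (R 4.3.3) with a trended prior. Tests were two-sided, with Benjamini-Hochberg adjustment across the whole table and a threshold of 0.05. The script was tested on simulated data. Column letters A to C match no mouse number in the labels. Columns of 1 letter and feeding state deviated together (r = 0.329 to 0.640 in 6 pairs, highest other r = 0.0213), so each letter was taken as 1 mouse and averaged for fasting. Freezing was fitted without a block.

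For fasting and for freezing, the text names up to 10 higher and 10 lower members with the largest difference, 1 per gene, among called members with separate groups and a height above the median peak. It also names the 2 highest members per repeat name, up to 3 members per gene list by lowest p, and the 2 with the lowest interaction p. Members and lists were chosen with earlier results of these data known, and further members of the lists and of genes with several members were named after their values were seen. The members near 1 gene of the lists are counted but not reported here. Motifs were searched in RefSeq promoter windows alone. Alternatives were another pseudocount, a filter on low peaks, scaling to peaks near gene starts, quantile normalization, leaving out each replicate, the replicate block, and fed or fasted libraries alone.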

Additional observations from a re-analysis of the deposited data

Results flagged for a closer look

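With the mouse as replicate block, 4 member peaks had a fasting difference that differed between frozen and fresh liver, by limma's interaction term with adjusted p under 0.05 over all peaks; without the block none did. The RSINE1 peak nearest Ofcc1 (intergenic) went from 204.9 ± 5.10 to 223.1 ± 2.39 reads in fresh liver and from 196.3 ± 11.4 to 334.7 ± 25.3 in frozen liver (mean ± SD, 3 libraries each). Its difference was larger in frozen liver by 0.64 ± 0.11 on the log2 scale (adjusted p = 0.00283). The RSINE1 peak nearest 4833420G17Rik, in intron 10 of Paip1, differed by 0.64 ± 0.13 (adjusted p = 0.0139), with log2 fasting differences of 0.39 (fresh) and 1.03 (frozen). The B4 peak in intron 4 of Arhgap18 differed by 0.79 ± 0.18 (adjusted p = 0.0325), with -0.07 (fresh) and 0.71 (frozen). The intergenic RSINE1 peak nearest Kcnq5 was lower in fasting in both, and the difference of its 2 values, -0.74 and -1.48, was -0.75 ± 0.19 (adjusted p = 0.047).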

How the results depend on the processing

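No called difference of a named or listed peak reversed under the alternatives run. The freezing split of the members did. In the main fit it was 227 higher and 310 lower, but 251 and 231 after quantile normalization. Higher peaks also outnumbered lower ones with freezing once the lowest 25% of peaks were left out. Leaving out the lowest 25% of peaks left 591 members. Of these, 97 were higher and 115 lower in fasting (16.41% and 19.46%, beside 16.42% and 13.48% of all peaks). Fresh liver gave 63 and 94 (10.66% and 15.91%, beside 10.66% and 11.35%). Frozen liver gave 76 and 87 (12.86% and 14.72%, beside 13.17% and 11.41%). Freezing gave 204 higher and 152 lower (34.52% and 25.72%, beside 36.01% and 27.2%). Scaling to peaks near gene starts gave 101 higher in fasting, 68 in fresh and 80 in frozen liver. Those are 10.85%, 7.304% and 8.593% of the members, beside 7.738%, 5.62% and 6.541% of all peaks. Freezing gave 188 lower in the fasted libraries alone (20.19%, beside 20.51% of all peaks). With the replicate block (paired by mouse) the interaction called 4 members in place of 0, and freezing called 253 higher and 373 lower in place of 227 and 310. The block gave 27.18% and 40.06% of the members for freezing, beside 32.16% and 37.9% of all peaks. Leaving out each replicate in turn gave, for higher and lower, 107 to 150 and 165 to 250 in fasting, 74 to 98 and 156 to 232 in fresh liver, 79 to 120 and 111 to 203 in frozen liver, and 210 to 229 and 276 to 323 with freezing. All 12 libraries without pairing gave 224 higher and 292 lower in fasting (24.06% and 31.36%, beside 25.17% and 22.98% of all peaks). Of 67 called differences of named or listed peaks, 11 lost the call under some alternative, all in gene lists or genes with several members. Another 11 such peaks that were not called changed sign in some setting and stayed uncalled. The causes were not tested. Depth limits low peaks most, since the shallowest library held a median of 37 reads per member.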
